A study of Mus musculus with 11 samples.

Results

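The 10 genes described here encode transcription factors and cofactors that direct red cell development: Gata1, Gata2, Klf1, Nfe2, Tal1, Lmo2, Ldb1, Zfpm1, Gfi1b and Bcl11a. They were chosen by name from 22367 protein-coding genes, with earlier results of these data known but by no threshold on the reads, and each was taken with 20 kb on both sides on the mouse assembly mm9. Their regions span 1321 of the 5309784 windows of 500 bp that tile the genome, from 86 windows at Klf1 to 272 at Bcl11a. PU.1 occupancy was measured by ChIP-Seq, in which an antibody recovers the DNA bound by a protein from fixed chromatin and the recovered DNA is sequenced beside input DNA. MEL cells are mouse erythroleukemia cells, here 1 clone that stably carries a GATA-1/ER fusion construct, and ES-EP are erythroid progenitors derived from embryonic stem cells and kept in culture with Epo, SCF, IGF-1 and dexamethasone. For each cell type, 2 preparations of chromatin, A and B, were taken through immunoprecipitation with an anti-PU.1 antibody. Each was sequenced in 2 libraries, which were summed here, next to 1 input library for MEL cells and 2 for ES-EP, so that PU.1 occupancy is compared between the cell types with n = 2 preparations each, while the MEL input has no replicate. No expression was measured in these files, so that the cell types could not be checked by marker transcripts.

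The Ets factor PU.1 directs the myeloid and B lymphoid lineages. Early red cell precursors contain it too, and there it contacts GATA-1 and holds back their maturation. GATA-1 and GATA-2 bind the same DNA motif and follow each other during erythroid development. TAL1 binds E-boxes with an E protein and is joined to GATA factors through LMO2 and LDB1, while FOG-1, the product of Zfpm1, is a cofactor of GATA-1. KLF1 and NF-E2, of which Nfe2 encodes the large subunit, activate globin and other red cell genes, GFI1B is a repressor needed for the erythroid and megakaryocytic lineages, and BCL11A silences embryonic and fetal globin genes.

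A window was called when the reads of both preparations exceeded the local input of the same cell type, with an adjusted p below 0.05 in each (one-sided Poisson test, Benjamini-Hochberg over the windows of the genome). The test compares reads with reads, and the 2 preparations are the only replication behind it. The MEL preparations held 5697937 (A) and 6987141 (B) reads and the MEL input 4278560. Those of ES-EP held 6284725 (A) and 7095855 (B), with 7488885 in the input, so that an average window held about 1 read. RPM stands for reads scaled to 1000000 reads of the library set. In the region of Sfpi1, which encodes PU.1 and was taken as the positive control, 2 windows were called in both cell types. The window chr2:90923001-90923500 had 23 (A) and 96 (B) ChIP reads in MEL cells against 4 in the input, while ES-EP had 33 and 38 against 3. It lay in an intron of the gene as annotated from its first TSS, but at -13002 bp from the TSS of another Sfpi1 transcript. Both primers that the paper lists for the URE match its sequence. The URE is the upstream regulatory element of Sfpi1, where the paper reports very high PU.1 occupancy. The window chr2:90910501-90911000, nearest to the TSS (transcription start site) of Slc39a13, had 85 and 303 reads against 5 in MEL cells, while ES-EP had 366 and 293 against 18. MEL preparation B thus gave more reads than A at both. No window was called around Myog, a muscle gene taken as the negative control, although MEL preparation B alone passed there at 2 windows (Poisson adjusted p = 0.00993 and 0.00657), so that a pass of that preparation alone was also seen at the negative control.

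PU.1 windows were called at 7 of the 10 genes in MEL cells and at 5 in ES-EP, and 9 windows were called in both cell types. In MEL cells 12 windows were called (0.908% of the windows of the 10 regions, against 0.147% of all windows), at Gata1, Tal1, Lmo2, Ldb1, Zfpm1, Gfi1b and Bcl11a. In ES-EP 14 were called (1.06% against 0.102%), at Gata1, Tal1, Zfpm1, Gfi1b and Bcl11a. Of the 17 distinct windows, 9 were called in both cell types, 3 in MEL cells alone and 5 in ES-EP alone. Over the genome 2907 windows were called in both (0.0547% of all windows), of 7825 called in MEL cells and 5425 in ES-EP. No window was called at Gata2, Klf1 or Nfe2 in either cell type, although other settings called Nfe2 and Klf1 in ES-EP. In MEL cells preparation B alone called all 10 genes within 2 kb of a TSS (against 42.3% of all genes). Summed MEL preparations called Gata2 and Nfe2 there (against 42.8%). Over all protein-coding genes, 33.3% had a called window in the gene or its 20 kb flanks in MEL cells, where ES-EP had 26.2%, and among genes whose regions had as many windows as these (86 to 272) the shares were 36 and 28.9%. A call in 1 cell type alone does not show that the cell types differ, and it selects windows with more reads in that cell type. None of the 184 windows of these regions that were tested for that difference passed it (limma, 0.241% of all windows passed). With log2 of RPM plus 0.5 and with median-ratio scaling 3 of the 184 passed (against 3.15 and 2.11% of all windows), and with a minimum of 10 reads 1 of 551 did (against 0.078%). Requiring both preparations set the level. MEL preparation B alone gave 40 called windows (against 0.445% of all windows) and A alone 17 (0.217%). ES-EP preparation A alone gave 32 (0.365%) and B alone 15 (0.131%). A binomial test against the input of the window itself left 2 windows in MEL cells (against 0.0277% of all) and 6 in ES-EP (0.0378%). In MEL cells 9 of the 12 called windows had an input of at most 3 reads.

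**Figure D1:**
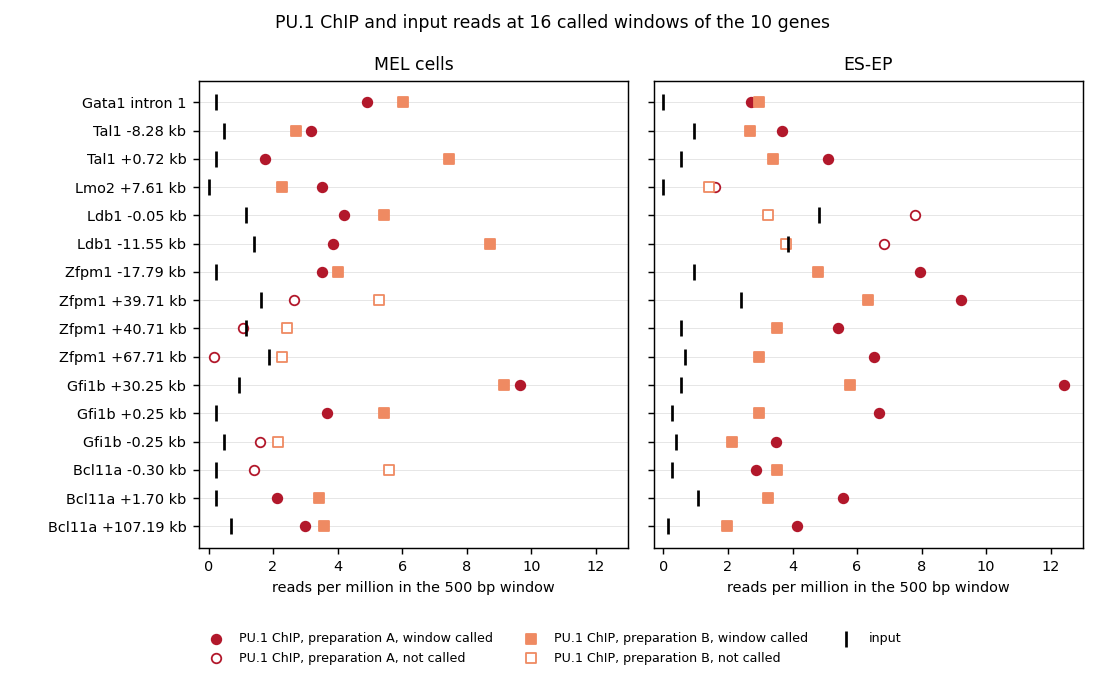
RPM of each library set (x axis) in 16 windows called at the 10 genes (y axis, distance from the gene start), with circles and squares for PU.1 ChIP preparations A and B, filled where the window was called in that cell type, and a bar for the input. At Gfi1b +30.25 kb the ChIP reads lay between 5.78 and 12.4 RPM in all 4 preparations, against 0.534 to 0.935 in the inputs, while at both Ldb1 windows the ES-EP input lay among the ChIP preparations.

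A called window lay within 2 kb of a TSS at Gata1, Tal1, Ldb1, Gfi1b and Bcl11a in MEL cells (5 of 10 genes, against 14.6% of all protein-coding genes) and at Gata1, Tal1, Gfi1b and Bcl11a in ES-EP (4 of 10, against 9.97%). At 4 of the 10 genes this held in both cell types, against 6.29% of all genes. These counts also followed single preparations, with 10 genes for MEL preparation B alone and 9 for ES-EP preparation A alone. The shares of all genes rose with them, to 42.3 and 26.5%. Gata1 had such a window under every setting tried in both cell types, Gfi1b under all but the binomial test in MEL cells, and Bcl11a under all but that test and windows of 250 bp in MEL cells. With windows of 250 bp (Gata1, Ldb1 and Gfi1b) or windows moved by 250 bp (Gata1, Gfi1b and Bcl11a), 3 genes had one in MEL cells.

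Binding of PU.1 and other Ets factors to DNA centres on a GGAA core, so the called windows were searched on both strands for 2 words that hold it, GAGGAA and GGAAGT, which overlap in GAGGAAGT. Either word was present in 14 of the 17 windows (82.4%), against 83.2% of all windows called in MEL cells, 90.9% of those called in ES-EP and 53.2% of all windows of the genome without undetermined bases. The longer word GAGGAAG was present in 11 (64.7%, against 46.5 and 50.6% of the windows called in MEL cells and ES-EP and 14.3% of all windows). The windows Tal1 +0.72 kb, Ldb1 -0.05 kb and Zfpm1 +39.71 kb held neither word, which says only that these letters were not in those 500 bp. The GATA word AGATAA was found in 5 of 17 (29.4%, against 22.2 and 27.2% of the called and 30.0% of all windows) and the E-box CAGCTG in 4 (23.5%, against 23.5 and 24.3% of the called and 17.0% of all). To show the core in its surroundings, 1 copy from each of 13 of these windows is given below with 12 bases on either side. The bases run 5′ to 3′ on the strand that carries the word, with the words in capitals.
Gata1 first intron, chrX:7541140-7541169, minus strand: agagaataaaaaGAGGAAatggaggaggcc
Tal1 -8.28 kb, chr4:114720639-114720668, minus strand: gggcttcacttgGAGGAAGTggaactgctc
Lmo2 +7.61 kb, chr2:103805812-103805841, plus strand: ctgcagcaagGAGGAAGTcaaatgtctcag
Ldb1 -11.55 kb, chr19:46131302-46131331, plus strand: ccacaggaaaggGAGGAAgcacttgcgtgc
Zfpm1 -17.79 kb, chr8:124788311-124788340, plus strand: gtgcctgaaaagGGAAGTgaatgtagcaat
Zfpm1 +40.71 kb, chr8:124846891-124846920, plus strand: tgatgggctccaGGAAGTggggccgccaca
Zfpm1 +67.71 kb, chr8:124873755-124873784, plus strand: gacagcacggGAGGAAGTgcctactgcttt
Gfi1b +30.25 kb, chr2:28447192-28447221, minus strand: gtcatcagaaatGAGGAActgctctgtgaa
Gfi1b +0.25 kb, chr2:28477257-28477286, minus strand: cctttaaggtgaGAGGAAgaatactgtggt
Gfi1b -0.25 kb, chr2:28477838-28477867, minus strand: agaggaggaggaGAGGAAggagagggggaa
Bcl11a -0.30 kb, chr11:23977521-23977550, plus strand: ctggcggggaggGGAAGTgggtgtgcgcac
Bcl11a +1.70 kb, chr11:23979643-23979672, plus strand: ttcaaaaaaagtGGAAGTggattttgattg
Bcl11a +107.19 kb, chr11:24085146-24085175, minus strand: ccactcgggaaaGAGGAActgacctttttc
In 3 of these 13 sites both words were fused into GAGGAAGT, at Tal1 -8.28 kb, Lmo2 +7.61 kb and Zfpm1 +67.71 kb. The copies farthest from the highest ChIP point were those of the neighbouring windows at the TSS of Gfi1b.

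Among the GATA genes, Gata1 had 1 called window, in the first intron of its main transcript, and Gata2 had none. At Gata1, on the minus strand of chromosome X, the window at chrX:7541001-7541500 had 28 (A) and 42 (B) ChIP reads in MEL cells with 1 read in the input, and 17 and 21 reads with an input of 0 in ES-EP. The window lay 3785 bp downstream of the main TSS and 41 bp downstream of the start of a short transcript. It was called in both cell types under all 8 alternatives that kept the windows in place. In MEL cells the preparations were 5.01 and 6.12 times the local input (Poisson adjusted p = 1.45e-08 and 1.16e-16), and in ES-EP 13.5 and 14.8 times (2.57e-11 and 2.09e-14). The 5 and 10 kb of this local input take in coding exons 2, 3 and 4 of Gata1, where the GATA-1/ER construct can add reads. The MEL input held 8, 9 and 5 reads in these exons and the ES-EP input 0 in each. Their part in the lower MEL values was not tested. Against the input of the window alone the ratio was 23.6 in MEL cells (95% exact binomial interval 4.10 to 945.7) and at least 7.09-fold in ES-EP, from a floor of 3 input reads, and such intervals and floors cover counting error only. At Gata2 the highest window of both cell types was chr6:88143501-88144000, 134 bp upstream of the TSS. It had 7 and 24 reads in MEL cells (input 4) and 18 and 21 in ES-EP (input 12), and MEL preparation B alone passed the test.

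The GATA-1/ER construct of the MEL cells can add reads to the coding exons of Gata1. These exons were therefore also counted in the input, which had no immunoprecipitation. In the MEL input 29 reads lay wholly inside the 5 coding exons (1239 bp), or 6.14 RPM per kb, against 1.10 in the introns and 0.591 in the flanks. In the ES-EP input no read did, which allows up to 3, against 0.323 in the introns and 0.331 in the flanks. The density in the exons was 5.60 times that of the introns in the MEL input, but 1.05 and 1.69 times in the MEL ChIP preparations, while those of ES-EP had 0.853 and 0.407 times. The introns of the ChIP preparations hold the called window, with 28 and 42 reads in MEL cells, where all introns held 68 and 106. This lowers the ChIP ratios in part. The coding exons themselves held 1.90 (A) and 3.87 (B) RPM per kb in the MEL ChIP preparations, below the 6.14 of the MEL input. The highest densities of the MEL input were in exon 2 (8 reads), exon 3 (9 reads) and exon 4 (5 reads). At the other genes the same ratio in the MEL input lay between 0.898 (Zfpm1) and 2.25 (Gata2), leaving out Nfe2, whose introns had no read. In the ES-EP input the highest ratio was 7.98, at Klf1. The called window of Gata1 lay between exon 1 and exon 2, outside the coding exons, and its own MEL input was 1 read. The local input that it was compared with did take in coding exons. The input of the whole region was 2.78 times as high in MEL cells as in ES-EP, and that of chromosome X 1.56 times relative to the median of the autosomes. The part of the construct in these reads was not tested.

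**Figure D2:**
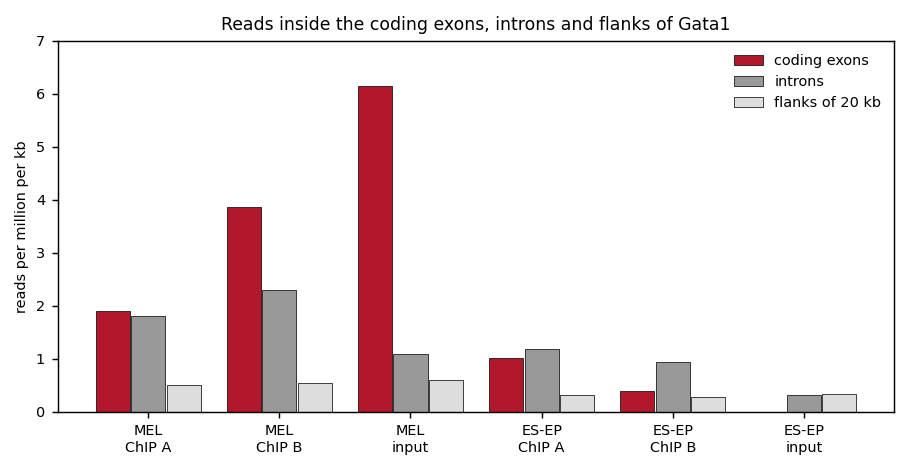
RPM per kb (y axis) that fell wholly inside the coding exons, the introns and the 20 kb flanks of Gata1 in each library set (x axis), bars from 1 set each without error. The MEL input has the highest bar, 6.14 in the coding exons, and the ES-EP input has no read there.

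Of the genes of the TAL1 complex, Tal1 itself carried windows called in both cell types, Lmo2 carried 1 called in MEL cells and Ldb1 had 2 called in MEL cells. A Tal1 window at chr4:114720501-114721000 lay upstream of the gene, at -8.28 kb from its start, and had 18 and 19 reads in MEL cells (input 2) and 23 and 19 in ES-EP (input 7). Another, chr4:114729501-114730000 in the first 1 kb of the gene, had 10 and 52 reads in MEL cells (input 1) and 32 and 24 in ES-EP (input 4). Preparation A of MEL cells passed narrowly there (Poisson adjusted p = 0.0497), and the MEL call was lost at an adjusted p below 0.01. With the binomial test that window lost its call in both cell types. The call at -8.28 kb was lost with the binomial test and with limma in both cell types, with unshifted reads in MEL cells and at an adjusted p below 0.01 in ES-EP. All 4 preparations stood above the input at both windows. The window at +0.72 kb is shown as 300 bases that contain its highest point (plus strand of mm9), and these hold neither word.
Tal1 +0.72 kb, chr4:114729567-114729866: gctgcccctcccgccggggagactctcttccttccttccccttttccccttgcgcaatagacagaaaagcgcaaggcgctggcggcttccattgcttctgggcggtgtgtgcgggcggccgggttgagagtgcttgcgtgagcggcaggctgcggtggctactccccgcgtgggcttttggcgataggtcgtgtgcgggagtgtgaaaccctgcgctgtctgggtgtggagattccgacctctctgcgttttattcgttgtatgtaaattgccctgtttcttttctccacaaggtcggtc

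Lmo2 and Ldb1 bridge TAL1 and the GATA factors. The Lmo2 window at chr2:103805501-103806000, in an intron 7.61 kb downstream of the first TSS, had 20 and 16 reads in the MEL preparations against 10 and 10 for ES-EP, with an input of 0 in both. Preparations A and B of MEL cells were 6.99 and 4.56 times the local input (Poisson adjusted p = 3.94e-08 and 0.000234), and those of ES-EP 3.06 and 2.71 times (0.206 and 0.614). MEL preparations lay above ES-EP preparations in every pairing, a pattern not counted over all windows. The difference between the cell types did not pass (log2 difference 0.90, SE 0.61, limma adjusted p = 0.790). With the preparations summed and with limma against the input the window was also called in ES-EP, 2 of the 8 alternatives. The highest Lmo2 window of ES-EP, chr2:103810501-103811000, over an exon, was not called, with 11 and 26 reads in MEL cells (input 6) and 15 and 17 in ES-EP (input 18). At Ldb1 the window on its TSS, chr19:46119501-46120000, had 24 and 38 reads in MEL cells (input 5) and 49 and 23 in ES-EP (input 36). The second, chr19:46131001-46131500, lay 71 bp from the TSS of Pprc1, a neighbouring gene, and had 22 and 61 reads in MEL cells (input 6) and 43 and 27 in ES-EP (input 29). ChIP RPM overlapped between the cell types at both windows, while the inputs were 1.17 and 1.40 RPM in MEL cells against 4.81 and 3.87 for ES-EP. The MEL call alone thus stood beside a lower input, whose part in the call was not tested. Both windows lost their call in MEL cells with the binomial test, with limma and with unshifted reads. The second also lost it at an adjusted p below 0.01.

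FOG-1 is encoded by Zfpm1, where 4 of 190 windows were called in ES-EP (2.11%, against 2.86% at Gfi1b and 2.70% at Tal1). The window chr8:124788001-124788500, upstream of Zfpm1 and nearest to the TSS of Gm22, was called in both cell types, with 20 and 28 reads in MEL cells (input 1) and 50 and 34 in ES-EP (input 7). Within the gene, chr8:124845501-124846000 had 15 and 37 reads in MEL cells (input 7) and 58 and 45 in ES-EP (input 18). Also in an intron, chr8:124846501-124847000 had 6 and 17 reads (input 5) and 34 and 25 (input 4). Downstream of the gene, chr8:124873501-124874000 had 1 and 16 reads (input 8) and 41 and 21 (input 5). That window was nearest to the TSS of Trhr2, at 10895 bp, against 67712 bp to that of Zfpm1. At all 4 windows both ES-EP preparations were above both MEL preparations in RPM, a pattern not counted over all windows. The last 3 were called in ES-EP alone, which selects for this pattern. The log2 differences, MEL cells minus ES-EP, were -0.71 (SE 0.65), -1.03 (SE 0.66), -1.40 (SE 0.63) and -1.88 (SE 0.74) in the order given, none past the threshold (limma adjusted p from 0.501 to 0.790). Relative to the input the first turned sign, to 0.76 (SE 1.38), and the others were -0.41, -2.35 and -3.70 (SE 1.07 to 1.20, lowest adjusted p 0.309). The last passed with log2 of RPM plus 0.5 (-1.84, limma adjusted p = 0.0228, 3.15% of all windows passed) and with a minimum of 10 reads (-2.50, adjusted p = 0.0487, 0.078% of all windows passed). It was -0.94 without MEL A (limma adjusted p = 0.876), -4.11 without MEL B (0.707) and -1.43 with the replicate block (0.730), none past the threshold. Without MEL A the window at chr8:124845501-124846000 was -0.53 and that at chr8:124846501-124847000 was -0.84. On chromosome 8, which also carries Klf1, the MEL input was 0.732 times that of ES-EP relative to the autosomes. Over the whole Zfpm1 region the input ratio was 1.08.

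The repressor genes Gfi1b and Bcl11a were called near their TSS and at a distant site in both cell types. By ChIP reads over both preparations, the highest window of the 10 genes in each cell type was chr2:28447001-28447500. The window lay downstream of Gfi1b and nearest to the TSS of Gtf3c5. It had 55 and 64 reads in MEL cells (input 4) and 78 and 41 in ES-EP (input 4), that is 10.0 times the input (95% exact binomial interval 3.82 to 37.4) and 16.7 times (6.34 to 62.1). By this ratio other windows were higher, among them that of Gata1 in MEL cells (23.6) and Bcl11a +107.19 kb in ES-EP (22.4), with wide intervals. Gfi1b +30.25 kb was called in both cell types under all 8 alternatives. At the TSS of Gfi1b the neighbouring windows chr2:28477001-28477500 and chr2:28477501-28478000 shared 1 highest point close to their border. The first had 21 and 38 reads in MEL cells (input 1) and 42 and 21 in ES-EP (input 2) and was called in both. The second had 9 and 15 (input 2) and 22 and 15 (input 3) and was called in ES-EP. The count of called windows thus holds this site as 2 windows in ES-EP and as 1 in MEL cells. The distant site is shown as 300 bases that contain its highest point (plus strand of mm9, words in capitals). The Zfpm1 window called in both cell types is shown beside it in the same way.
Gfi1b +30.25 kb, chr2:28447118-28447417: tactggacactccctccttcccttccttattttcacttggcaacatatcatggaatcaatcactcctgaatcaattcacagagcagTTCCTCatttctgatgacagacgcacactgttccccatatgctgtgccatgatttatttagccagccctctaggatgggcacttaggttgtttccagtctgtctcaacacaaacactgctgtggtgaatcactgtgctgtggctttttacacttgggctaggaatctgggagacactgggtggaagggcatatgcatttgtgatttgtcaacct
Zfpm1 -17.79 kb, chr8:124788222-124788521: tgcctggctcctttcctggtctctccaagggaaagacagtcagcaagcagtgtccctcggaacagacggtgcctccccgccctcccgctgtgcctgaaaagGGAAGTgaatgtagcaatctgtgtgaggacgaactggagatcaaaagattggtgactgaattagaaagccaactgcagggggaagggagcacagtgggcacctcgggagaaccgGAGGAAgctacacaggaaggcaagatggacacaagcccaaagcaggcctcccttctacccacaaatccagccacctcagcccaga

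At Bcl11a the window chr11:23979501-23980000, in an intron near its start, had 12 and 24 reads in MEL cells (input 1) and 35 and 23 in ES-EP (input 8). The window chr11:24085001-24085500, downstream of the gene, had 17 and 25 reads in MEL cells (input 3) and 26 and 14 in ES-EP (input 1). Both were called in both cell types. The distant window lost its call with the binomial test in both, and in MEL cells also with limma and with unshifted reads, while the other lost it with the binomial test in both and in ES-EP also with limma. Just upstream of the TSS, chr11:23977501-23978000 had 8 and 39 reads in MEL cells (input 1) and 18 and 25 in ES-EP (input 2). Preparation B of MEL cells was 14.9 times the local input there (Poisson adjusted p = 1.40e-28) and A 3.75 times (0.245), so that the window was called in ES-EP alone, where it held under all 8 alternatives. ES-EP lay between the 2 MEL preparations in RPM at this window.

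**Figure D3:**
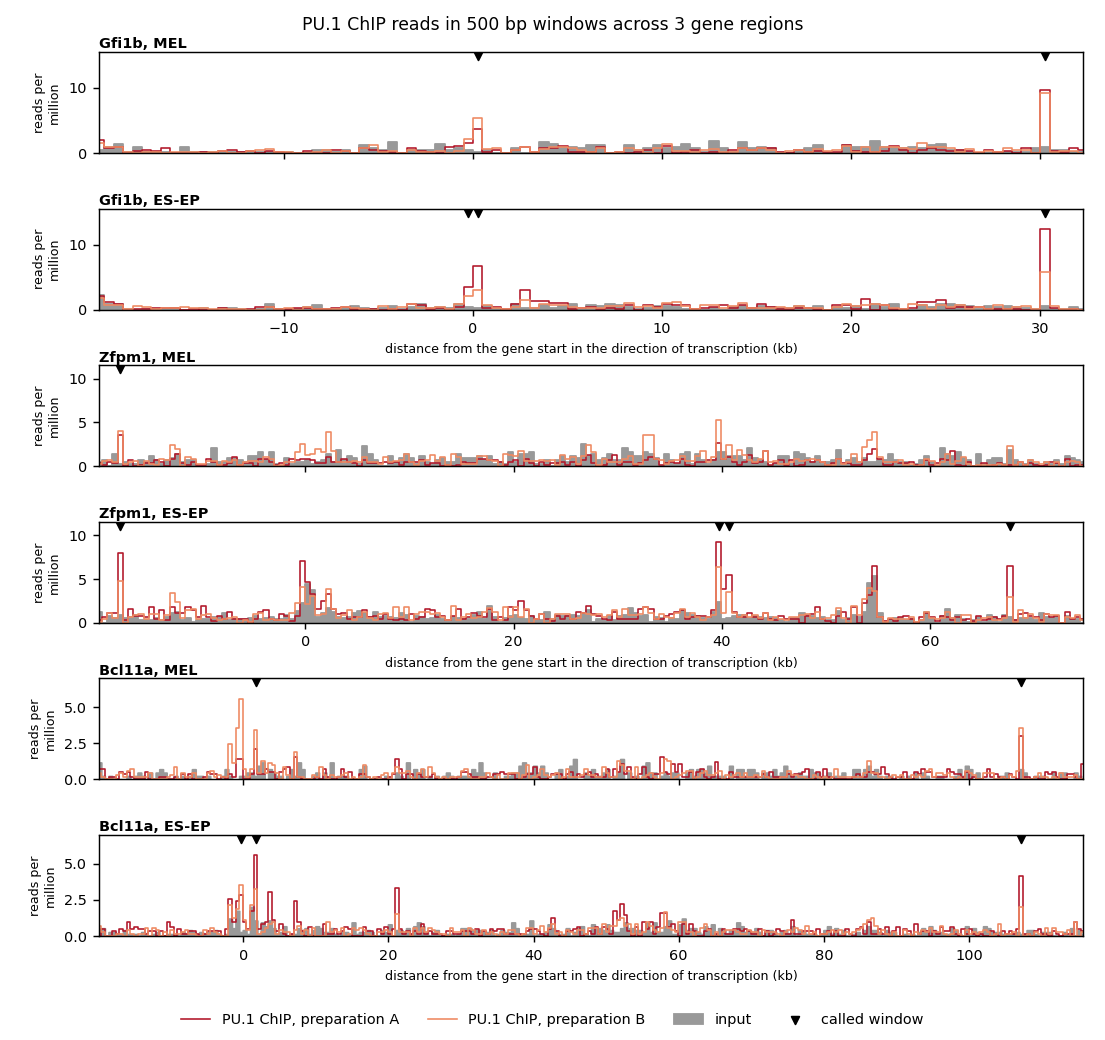
RPM in 500 bp windows (y axis) by distance from the gene start in the direction of transcription (x axis, kb) at Gfi1b, Zfpm1 and Bcl11a, with red and orange lines for PU.1 ChIP preparations A and B, grey for the input and triangles for called windows. The distant peaks, at +30.25 kb of Gfi1b and +107.19 kb of Bcl11a, rise above the input in both cell types, and those of Zfpm1 at +40.71 and +67.71 kb are called in ES-EP alone.

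Klf1 and Nfe2, the activators of globin genes, had no called window in either cell type, although single preparations passed at both. The paper reports PU.1 at Klf1 in both cell types, near its TSS or inside the gene, by ChIP-Seq and by ChIP at single sites. Its peaks came from merged replicates, while a call here required both preparations to pass. The lack of a call thus does not show that PU.1 was absent. At Klf1, chr8:87427001-87427500, 1.42 kb downstream of the TSS and over an exon, had 2 and 19 reads in MEL cells (input 4) and 59 and 24 in ES-EP (input 28). Both ES-EP preparations lay above both MEL preparations in RPM, a pattern not counted over all windows (log2 difference -2.35, SE 0.63, limma adjusted p = 0.0708). The difference passed with log2 of RPM plus 0.5 (-1.90, adjusted p = 0.0173) and with median-ratio scaling (-1.87, adjusted p = 0.0304), but not with the letter as a replicate block (adjusted p = 0.388). It was -1.06 without MEL A (limma adjusted p = 0.873) and -3.73 without MEL B (0.707). The ChIP-to-input ratio differed by -0.69 (SE 1.14), while the input of the window was 0.935 RPM in MEL cells against 3.74 for ES-EP. Upstream, chr8:87413001-87413500, nearest to the TSS of Gcdh, had 24 and 12 reads (input 2) and 24 and 14 (input 8). In MEL cells its preparation A passed and B did not (Poisson adjusted p = 9.20e-11 and 0.0731). At the first TSS of Nfe2, chr15:103088501-103089000 had 3 and 14 reads in MEL cells (input 1) and 33 and 14 in ES-EP (input 13). Preparation B passed in MEL cells (Poisson adjusted p = 0.000244) and preparation A in ES-EP (1.80e-05). At chr15:103085501-103086000, on a second TSS of Nfe2, no preparation passed, with 5 and 13 reads in MEL cells (input 6) and 12 and 14 in ES-EP (input 17). With the preparations summed, a window within 2 kb of a TSS was called at Nfe2 in both cell types, at Klf1 in ES-EP and at Gata2 in MEL cells, where 42.8% (MEL cells) and 26.8% (ES-EP) of all genes had one. In ES-EP such a window was also called at Nfe2 with limma against the input (8.20% of all genes), with windows of 250 bp (11.5%) and with windows moved by 250 bp (9.92%), and at Klf1 with windows of 250 bp.

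To compare the cell types by 1 value per gene, all reads within 2 kb of any TSS were counted and compared with limma, the preparations being the replicates. Klf1 alone of the 10 genes differed, with fewer reads in MEL cells, against 1.4% of all 20817 promoters tested (292) in either direction and 0.562% with fewer reads in MEL cells. Its promoter had 3.33 (A) and 10.0 (B) RPM in MEL cells against 20.2 and 12.3 for ES-EP, with 7.48 and 11.6 in the inputs. The groups did not overlap, which was not counted over all promoters. The log2 difference was -1.45 (SE 0.42, limma adjusted p = 0.0448), where the median over all promoters was -0.15. The call was lost with the letter as a replicate block (-1.61, limma adjusted p = 0.167) and when libraries stood as samples (-1.25, adjusted p = 0.0542). With a preparation left out, the single one left was assumed to vary like the other cell type. The difference was then -0.67 without MEL A (limma adjusted p = 0.804), -2.23 without MEL B (0.00461), -1.08 without ES-EP A (0.878) and -1.80 without ES-EP B (0.215), and over all promoters 32 to 393 passed. With the input of 100 kb as an offset the difference was -0.99 (limma adjusted p = 0.403), and the difference of the ChIP-to-input ratio, a fit added after the values were seen, was -0.89 (SE 0.63, adjusted p = 1.00). In ES-EP the promoter was 1.74 and 1.06 times the input, and in MEL cells 0.446 and 1.34 times.

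Zfpm1, Nfe2 and Gata1 differed by more than 1 on the log2 scale without passing. Zfpm1 had 4.91 and 11.3 RPM in MEL cells against 21.0 and 14.8 for ES-EP (-1.25, SE 0.43, limma adjusted p = 0.124), and Nfe2 had 5.97 and 10.3 against 22.3 and 14.0 (-1.18, SE 0.43, adjusted p = 0.161). Gata1 had 17.6 and 25.2 RPM in MEL cells against 11.6 and 7.61 for ES-EP (1.14, SE 0.44, adjusted p = 0.200). The stretch counted at Gata1 takes in its coding exons 2 and 3, where the GATA-1/ER construct can add reads in MEL cells. The MEL input held 8 and 9 reads wholly inside these exons, and the ES-EP input 0 in each. The part of the construct in the Gata1 promoter values, ChIP and input, was not tested. With median-ratio scaling, which moved the median of all promoters from -0.15 to -0.02, these 3 promoters passed together with Klf1 (limma adjusted p between 0.00348 and 0.0300), so that 4 of the 10 did against 4.71% of all. With libraries as samples these 3 passed and Klf1 did not (limma adjusted p between 0.0209 and 0.0477 for the 3, 3.61% of all promoters passed), although libraries of 1 preparation are not independent. Zfpm1 was -0.65 without MEL A and -1.84 without MEL B, where it passed (limma adjusted p = 0.0213). Nfe2 was -0.79 and -1.57 in these fits and -0.20 with the input offset, none past the threshold. The inputs differed in the same direction, with 14.5 RPM in MEL cells against 3.74 for ES-EP at Gata1, 4.44 against 14.7 at Zfpm1, and 8.18 against 12.6 at Nfe2. A fit to all libraries, in which the 1 MEL input was assumed to vary like the others, gave input differences of 1.96 (SE 0.50, limma adjusted p = 0.0295, 0.841% of promoters passed), -1.66 (SE 0.51, 0.0778) and -0.63 (SE 0.48, 0.599). Relative to the input the Gata1 and Zfpm1 values changed sign, to -0.80 (SE 0.62) and 0.44 (SE 0.63), and Nfe2 was -0.51 (SE 0.61), under the same assumption. No promoter of the 10 differed in that ratio (limma adjusted p = 1.00 each, 0.0384% of promoters passed).

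The other 6 promoters had log2 differences between -0.51 (Bcl11a) and 0.16 (Ldb1), with SE of 0.42 to 0.49 and limma adjusted p of 0.704 or above. At Gata2 the MEL preparations had 8.78 and 17.7 RPM and those of ES-EP 14.5 and 10.0, and at Tal1 they had 8.07 and 16.6 against 17.2 and 10.1. The preparations of the 2 cell types overlapped at both. The intervals of 2 SE around the 6 values reached from -1.44 (Bcl11a) to 1.14 (Ldb1), so that they do not show equal occupancy. At all 10 promoters preparation B had more RPM than A in MEL cells, and A had more than B in ES-EP. In MEL cells the promoters of Sfpi1 (14.2 and 22.9) and Myog (1.76 and 4.01) also had more in B. In ES-EP preparation A had more at Sfpi1 (13.5 and 12.4) and less at Myog (1.75 and 2.82). The share over all promoters was not counted, so this is not shown to be particular to the 10 genes.

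**Figure D4:**
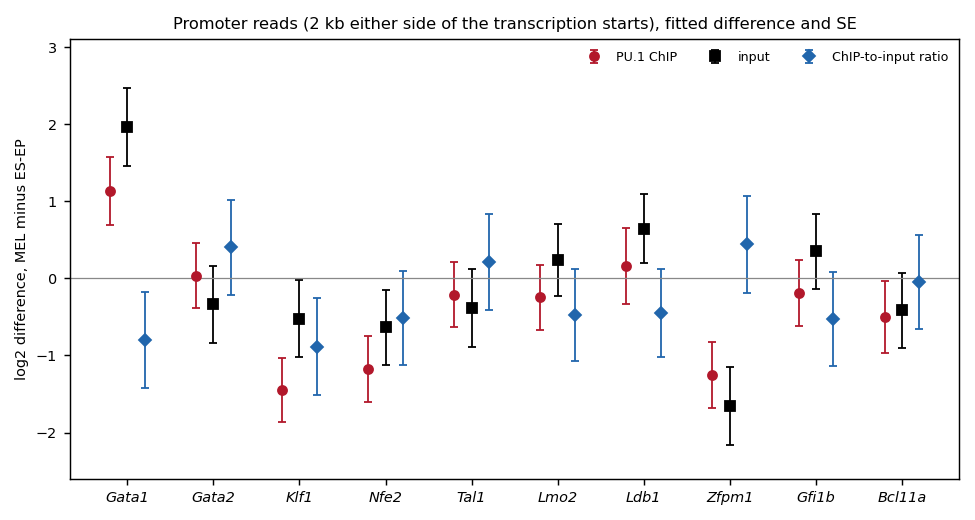
Fitted log2 difference, MEL cells minus ES-EP, with SE (y axis) of the reads within 2 kb of a TSS at the 10 genes (x axis), for PU.1 ChIP (circles, 2 preparations per cell type), input (squares, 1 MEL and 2 ES-EP libraries) and the ChIP-to-input ratio (diamonds), the last 2 with no spread of their own for the MEL input. At Gata1, Zfpm1, Tal1 and Ldb1 the ChIP and input differences have the same sign and the ratio has the opposite one. At Klf1, Nfe2 and Bcl11a all 3 values are below 0.

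Genes whose products work with these factors were read as lists, by a called window within 2 kb of a TSS, beside the 14.6% (MEL cells) and 9.97% (ES-EP) of all genes. Of 10 partners of the TAL1 complex, 6 were called in MEL cells (Cbfa2t3, Lmo4, Lyl1, Ssbp4, Tcf12 and Tcf3) and 4 in ES-EP (Cbfa2t3, Lyl1, Ssbp3 and Ssbp4), 3 of them in both. Cbfa2t3 encodes the corepressor ETO2 and Lyl1 a close relative of TAL1. Of 8 genes for small MAF proteins, BACH factors and NF-E2 relatives, 4 were called in MEL cells (Bach2, Mafg, Mafk and Nfe2l3) and Mafk in ES-EP. Of 13 FOG-1 and NuRD partners, 2 were called in MEL cells (Hdac1 and Mta1), 2 in ES-EP (Mbd2 and Rbbp7) and none in both. These counts are near the shares of all genes. Of 8 corepressor partners of GFI1B and BCL11A, 5 were called in MEL cells (Kdm1a, Nr2c2, Rcor1, Rcor2 and Zbtb7a), among them LSD1, encoded by Kdm1a, and its partner CoREST, and Nr2c2 was called in ES-EP. Of 15 related GATA, KLF and other genes found in the annotation, Gata5, Klf3, Klf10 and Klf13 were called in MEL cells and none in ES-EP. The lists were not tested, and a call in 1 cell type alone was not a tested difference.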

How the data were processed

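Reads came from an Illumina GAII, and the authors aligned them to mm9 with ELAND (version not given in the sources used here), keeping unique alignments. In the deposited files each line is a read position without a measured value, and every count was made here from these lines. Starts were read as counted from 1, which matched the genome in 99.9 to 100% of 2000 reads per library. The library letter of the labels was taken as the preparation (the ES-EP files carry C and D where the labels have A and B), libraries of a preparation were summed, and reads on chromosomes 1 to 19, X and Y were used (2054667 to 5051235 per library, of which 1.59 to 9.00% repeated a position and strand). Read starts were moved by 70 bp (MEL) or 65 bp (ES-EP). The expected reads of a 500 bp window were the highest of the genome mean and the input, scaled by depth, of the window and of 5 and 10 kb around it. Cell types were compared with limma 3.58.1 (voom, two-sided, 20 or more reads over the 4 preparations, scaled by total reads, Benjamini-Hochberg over all features). Genes came from GENCODE vM1, and sequences from NCBIM37, the same assembly. All 10 genes are named, with their called and highest windows, except 1 called window that is not reported here. The members and lists were chosen with earlier results of these data known. The scripts were tested on simulated data. P-values of limma measure the spread between 2 preparations, and Poisson p-values hold counting error only.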

Additional observations from a re-analysis of the deposited data

Results flagged for a closer look

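Among the 4 ChIP libraries of each cell type, 1 value stood apart from the other 3 at the 10 promoters and 17 called windows. At Bcl11a +107.19 kb, MEL library A1 had 1.46 RPM, while the other MEL libraries had 3.53 to 3.84. Its gap to the nearest library was 0.868 of the range, above the critical value of Dixon's test for 4 samples. Of 54 such sets tested, chance would flag about 1 in 20.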

How the results depend on the processing

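Counts of called windows and genes depended on the test and on single preparations. For MEL cells (12 windows, 5 genes) the binomial test gave 2 windows and 1 gene (0.0277% of all windows, 2.47% of all genes). Summed preparations gave 42 and 8 (0.544 and 42.8%). Leaving out a preparation gave 17 to 40 windows (0.217 to 0.445%) and 5 to 10 genes (16.2 to 42.3%). Windows of 250 bp or moved by 250 bp gave 3 genes each (15.6 and 14.2%). For ES-EP (14 windows, 4 genes) the binomial test gave 6 windows (0.0378%) and summed preparations 39 windows and 9 genes (0.375 and 26.8%). Leaving out a preparation gave 15 to 32 windows (0.131 to 0.365%) and 4 to 9 genes (11.4 to 26.5%). Windows of 1000 bp gave 9 windows (0.162%). The other settings stayed within 1.5 times.

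For windows differing between the cell types (157), log2 of RPM plus 0.5 gave 2049, median-ratio scaling 1369, a minimum of 10 or 40 reads 386 or 24, each library as a sample 1365 and the ChIP-to-input ratio, added after the data were seen, 40. Leaving out a preparation gave 0 to 1 (1553 to 4313 at an unadjusted p below 0.05). For promoters (292), median-ratio scaling gave 981, each library as a sample 752, the input offset 46 (17 higher in MEL cells, 29 lower), the ChIP-to-input ratio 8 and leaving out a preparation 32 to 393. With the letter as a replicate block 10 windows and 107 promoters differed, Klf1 not among them (limma adjusted p = 0.167). The A minus B deviations of the cell types correlated with r = 0.00835 over windows and -0.204 over promoters, with 2 pairs, so the letters were not taken as pairs. With the letters crossed, added after the data were seen, 1809 windows and 2031 promoters differed, 3 windows and 4 promoters of the 10 genes among them.

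Directions turned at promoters and windows that did not pass. With the input offset, Gata1 became -0.14, Gata2 -0.80 and Ldb1 -0.42, and the Gata1 window -0.34. The windows Gfi1b +30.25 kb and Ldb1 -11.55 kb became -0.40 and -0.48. Those of Nfe2 at chr15:103085501-103086000 and Klf1 at chr8:87413001-87413500 became 0.41 and 0.47. By the ChIP-to-input ratio Gata1 became -0.80, Ldb1 -0.45, Tal1 0.21 and Zfpm1 0.44, and the Gata1 window -0.37. In all, 15 of the 23 called or highest windows of the 10 genes had the opposite sign by this ratio (lowest limma adjusted p 0.309). Under the replicate block Gata2 was -0.024. Leaving out a preparation moved Bcl11a between -1.06 and 0.10, Gata2 between -0.46 and 0.54, Ldb1 between -0.24 and 0.58, and Tal1 between -0.72 and 0.31. The cause was not tested. An average window held about 1 read, which limits single windows more than promoters.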
